A study of Mus musculus with 6 samples.

Results

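The genes described here are *Vegfa*, *Vegfb*, *Vegfc*, *Pgf* and *Pdgfb*, which encode secreted growth factors of the VEGF and PDGF families, and *Flt1*, *Kdr*, *Flt4* and *Tek*, which encode receptor tyrosine kinases of blood and lymphatic vessels. They were chosen by name, and all 9 were among the 23424 genes counted. The libraries are bulk RNA-seq of tumor-associated macrophages (TAMs) from YUMM1.7 melanomas. The YUMM1.7 line, derived from a mouse melanoma with mutant *Braf* and loss of *Cdkn2* among its lesions, was injected i.d. into wild type female C57Bl/6J mice of 8 weeks, with no treatment in either subset. On day 21, live CD45+ CD11b+ cells without lymphocyte lineage markers were sorted into an F4/80high and an F4/80low subset, fixed and sequenced from poly-A RNA. Tumors were pooled before each sort, and 3 independent experiments gave 3 libraries of each subset, so each value is the mean over a pool of animals and the spread among libraries is that between experiments.

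VEGF-A is the main growth signal of blood vessels and acts through VEGFR2, encoded by *Kdr*, while VEGFR1, encoded by *Flt1*, binds the same ligand tightly and has a secreted form that holds it back. VEGF-C acts on lymphatic vessels through VEGFR3, encoded by *Flt4*, and PDGF-B recruits the pericytes that coat new vessels. Macrophages in tumors are a known source of VEGF-A, which is induced by low oxygen through the HIF transcription factors.

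The F4/80high libraries held 30292061, 43604373 and 16045281 counts in the order of their replicate numbers, which is the order used throughout, and the F4/80low libraries held 32967733, 32560608 and 16204810. The third replicate of both subsets, drawn by the study as a batch of its own, stood apart from the others. The 3 features *Lars2*, *Gm23935* and *Gm15564* took 17.1% of its F4/80high counts and 16.1% of its F4/80low counts, against 0.378% to 0.609% in the 4 libraries of batch 1. Levels are given in CPM, the read count of a gene scaled to the TMM-normalized protein-coding counts of its library, on which 3 counts, taken as the floor of detection, correspond to 0.0583 to 0.0757 CPM in batch 1 and to 0.324 and 0.342 CPM in batch 2. The fit therefore carried a batch term. *Adgre1*, which encodes F4/80, was at 391 CPM on average in F4/80high, against 251 CPM in F4/80low, and exceeded its F4/80low partner, the library of the same replicate number, in 3 of 3 pairs, with a log2 fold change of 0.67 ± 0.30 (SE) and an edgeR adjusted p of 0.664.

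The question put to these genes was whether the subsets differ in what they express toward vessels. The fit across genes was edgeR's quasi-likelihood test with a batch term, and a gene was called where its adjusted p was under 0.05 and its absolute log2 fold change over 1. None of the 9 genes was called, and neither was any other of the 14645 genes tested (0%). DESeq2 with the same terms called 148 genes (1.01%) and edgeR with a block for the replicate number 76 (0.519%), none of the 9 among them, and edgeR without F4/80high replicate 1 called 77. At an unadjusted p under 0.05, 480 genes (3.28%) were higher in F4/80high and 633 (4.32%) lower, and among the 8 angiogenic genes with enough counts to be tested these were *Kdr* and *Pdgfb* on the higher side and *Vegfa* on the lower side. These 3 became 0 without replicate 3 of either subset or with no batch term, 1 without F4/80high replicate 2 or F4/80low replicate 1, and 4 without F4/80high replicate 1. Over the 8 genes, 3 had a positive log2 fold change (*Vegfb*, *Pdgfb* and *Kdr*) and 5 a negative one, with a median of -0.45, beside a median of 0.01 and 50.8% positive over all genes tested. In the same direction in 3 of 3 pairs were *Vegfa*, *Vegfc*, *Pgf* and *Flt1* as lower, beside 15.9% of all genes, and *Vegfb* and *Pdgfb* as higher, beside 16% of all genes. Since these are bulk libraries, fewer cells of an expressing type and less RNA per cell cannot be told apart.

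**Figure D1:**
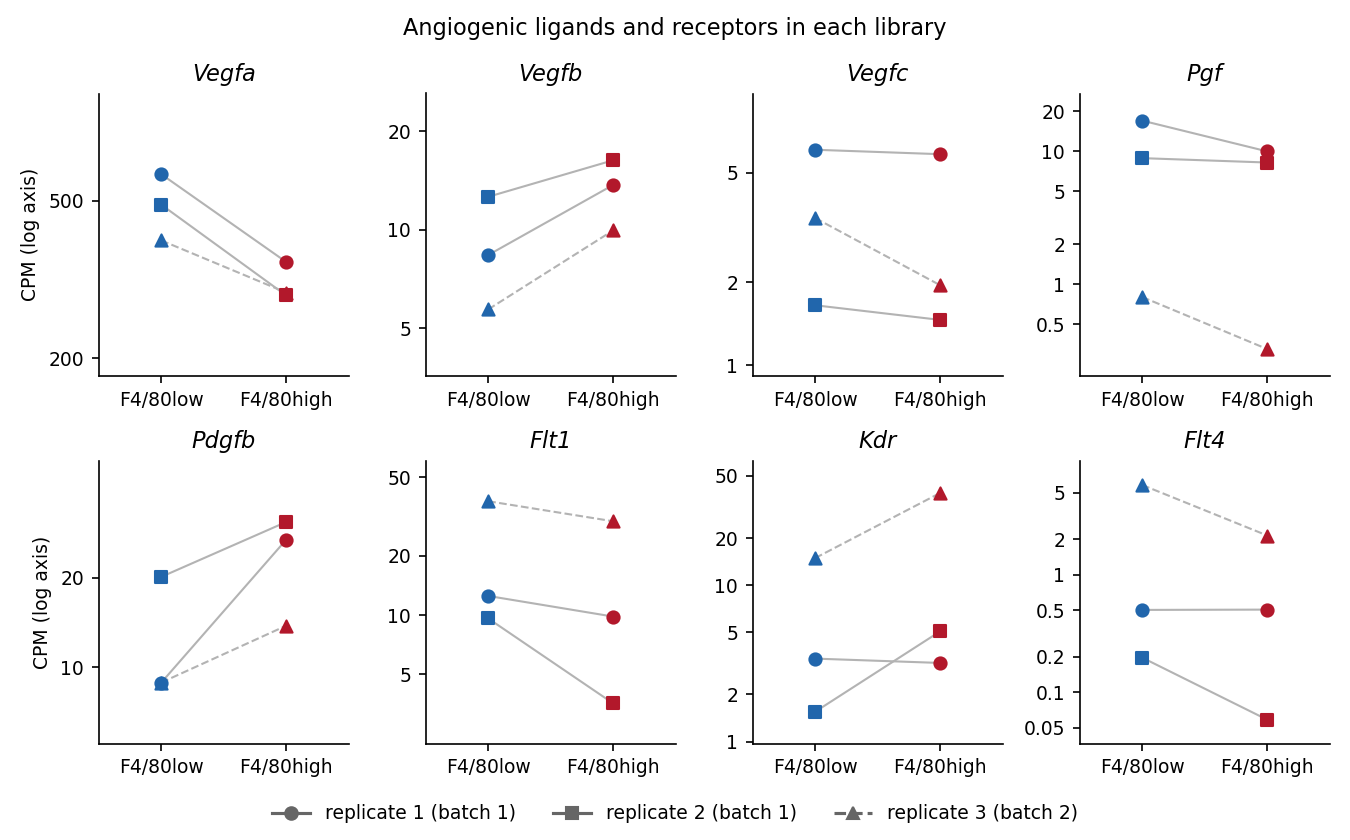
CPM of each gene (log axis, a scale of its own in each panel) in the F4/80low and F4/80high libraries, with a line between libraries of the same replicate number and a dashed line for batch 2. *Vegfa* was below its F4/80low range in all 3 F4/80high libraries, while the *Pgf*, *Flt1*, *Kdr* and *Flt4* values of batch 2 lie apart from those of batch 1.

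*Vegfa* was by far the most abundant of the ligands. It was counted 13878, 14826 and 2714 times in F4/80high, against 23267, 19897 and 3481 times in F4/80low, which is 350, 288 and 293 CPM against 584, 489 and 397 CPM. All 3 F4/80high libraries lay below all 3 F4/80low libraries, as did those of 2.9% of the genes tested. The means were 311 ± 34.5 CPM (SD, n = 3) in F4/80high, against 490 ± 93.5 CPM (SD, n = 3) in F4/80low. The log2 fold change was -0.65 ± 0.22 (SE), with a 95% interval of -1.15 to -0.14, an unadjusted p of 0.0175 and an edgeR adjusted p of 0.539. The differences within pairs were -0.74, -0.76 and -0.44 on the log2 scale, so the batch with the fewest counts gave the smallest of them. With the replicate number entered as a block in DESeq2, the adjusted p was 0.0568, the lowest of the 19 alternatives tried, and the fold change stayed under the threshold in all 19. The gene lies on the minus strand of GRCm38 chr17:46016993-46032369, and the counts are per gene, so the diffusible and matrix-bound splice forms were not distinguished.

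Per kilobase of gene length, *Vegfa* had a mean of 93.3 RPKM (the CPM divided by the gene's length in kilobases), from 67.1 to 136 among the libraries, and ranked 556 of 14645 genes. It was followed by *Vegfb* at 6.91, *Pdgfb* at 6.24, *Pgf* at 4.76, *Vegfc* at 1.8, *Flt1* at 1.27, *Kdr* at 1.24, *Flt4* at 0.187 and *Tek* at 0.000893 RPKM. The RPKM range of *Vegfa* did not overlap with that of *Vegfb*, and that of *Flt4* did not overlap with that of *Tek*. The lowest *Flt4* value rests on 3 counts and the highest *Tek* value on 1, at or under the floor. A gap between these ranges therefore cannot be read. All other neighbours in this order had overlapping ranges, although *Kdr* was above *Flt4* within each of the 6 libraries, and from *Vegfb* to *Kdr* the order of neighbours changed between libraries. The lengths used for *Vegfc*, *Pgf* and *Pdgfb* in the files, 1881, 1582 and 2918 bases, are shorter than the merged exons of the GENCODE M21 annotation, 2449, 2903 and 4161 bases, and with those lengths their RPKM values would be lower. As a share of the summed RPKM of the 4 VEGF-family ligands described, *Vegfa* made up 82%, 80.6% and 90.2% in F4/80high, against 87.6%, 88.8% and 94% in F4/80low. The *Vegfb* share was 8.55%, 12.2% and 8.18% in F4/80high, against 3.36%, 6.11% and 3.61% in F4/80low, with no overlap between the subsets. Since *Vegfa* is most of the sum, a lower *Vegfa* by itself raises the *Vegfb* share. The RPKM values of *Vegfb* overlapped between the subsets.

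*Vegfb* (chr19:6982473-6987651, minus strand), whose product binds VEGFR1 and is linked to lipid uptake and heart vessels more than to sprouting, was at 13.7, 16.3 and 9.95 CPM in F4/80high, against 8.36, 12.6 and 5.7 CPM in F4/80low. It was higher in F4/80high in every pair, by 0.71, 0.37 and 0.80 on the log2 scale, although the ranges of the subsets overlapped. Its fitted log2 fold change was 0.61 ± 0.33 (SE; 95% interval -0.13 to 1.34) with an edgeR adjusted p of 0.696.

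*Pdgfb* showed the larger difference of the same direction. The gene (chr15:79995874-80014977, minus strand) had 26.8, 30.7 and 13.8 CPM in F4/80high, against 8.89, 20.1 and 8.9 CPM in F4/80low, so that each F4/80high library was above its partner while the third F4/80high library was below the second F4/80low library. The means were 23.8 ± 8.83 CPM (SD, n = 3) and 12.6 ± 6.46 CPM (SD, n = 3). The log2 fold change was 0.88 ± 0.35 (SE), with a 95% interval of 0.09 to 1.66, an unadjusted p of 0.0322 and an edgeR adjusted p of 0.621. The first pair differed by 1.59 and the others by 0.61 and 0.64, and over the alternatives tried the log2 fold change ran from 0.57 to 1.25. *Vegfa* and *Pdgfb*, a vessel ligand and a pericyte ligand, thus had opposite signs in every pair of libraries.

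The remaining ligands were *Pgf* and *Vegfc*. *Pgf* (chr12:85166635-85177790, minus strand) encodes placental growth factor, a ligand of VEGFR1 and of no other VEGF receptor, and was counted 395, 423 and 3 times in F4/80high, against 678, 361 and 7 times in F4/80low. These counts are 9.97, 8.22 and 0.324 CPM against 17, 8.87 and 0.799 CPM, so that its batch 1 mean of 11 CPM was near the 12.7 CPM of *Vegfb*. The 2 genes are of like length by the lengths used, but not by merged exons of GENCODE M21 (2903 bases for *Pgf*, 1605 for *Vegfb*). The F4/80high value of *Pgf* in batch 2 was at the floor. Its log2 fold change was -0.65 ± 0.43 (SE; 95% interval -1.63 to 0.33) with an edgeR adjusted p of 0.735. *Vegfc*, the lymphatic ligand (chr8:54077606-54187096, plus strand), was at 5.83, 1.46 and 1.95 CPM in F4/80high, against 6.05, 1.65 and 3.42 CPM in F4/80low. The first replicates of both subsets held the most *Vegfc*, and the spread between experiments was wider than the difference between subsets, which was -0.31 ± 0.71 on the log2 scale (SE; 95% interval -1.91 to 1.3, edgeR adjusted p = 0.943). Its sign turned without F4/80high replicate 2, to 0.04, and without F4/80low replicate 1, to 0.30.

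**Figure D2:**
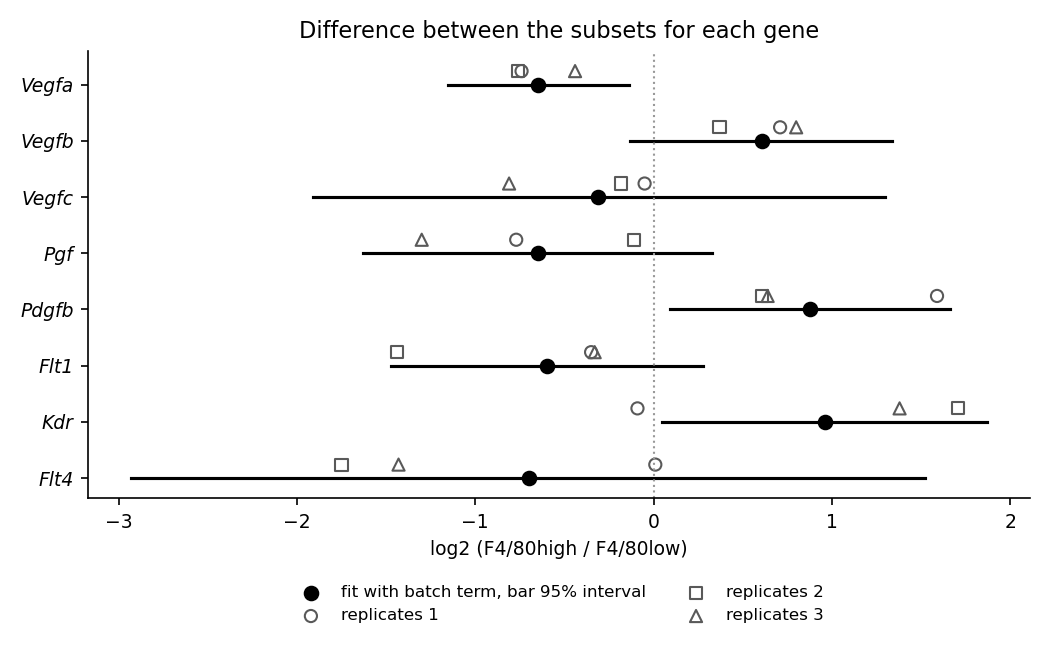
Log2 ratio of F4/80high to F4/80low for each gene, with filled points and bars for the fit with a batch term and its 95% interval and open symbols for each pair of replicates. The intervals of *Vegfa*, *Pdgfb* and *Kdr* do not reach 0 before adjustment, and the pairs of *Kdr* and *Flt4* lie on both sides of 0.

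The receptors were expressed at far lower levels per length than *Vegfa*. *Kdr* (chr5:75932827-75978458, minus strand) was counted 126, 261 and 360 times in F4/80high, against 135, 63 and 131 times in F4/80low, which is 3.18, 5.07 and 38.9 CPM against 3.39, 1.55 and 14.9 CPM. The subsets were level in the first pair, at -0.09 on the log2 scale, and F4/80high was above F4/80low in the second and the third, by 1.71 and 1.38. The fitted log2 fold change was 0.96 ± 0.40 (SE; 95% interval 0.05 to 1.87) with an unadjusted p of 0.0416 and an edgeR adjusted p of 0.639, and it stayed between 0.74 and 1.4 over the alternatives tried.

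*Flt1* (chr5:147561604-147726011, minus strand) had 9.82, 3.56 and 29.9 CPM in F4/80high, against 12.5, 9.61 and 37.8 CPM in F4/80low. Each F4/80high library was below its partner, at -0.35, -1.44 and -0.33 on the log2 scale, but the ranges of the subsets overlapped. The fit gave -0.60 ± 0.39 (SE; 95% interval -1.47 to 0.28) with an edgeR adjusted p of 0.726. The counts do not separate the membrane receptor from its secreted form. As a share of the summed RPKM of the 3 VEGF receptors, *Kdr* made up 30.9%, 67.5% and 63.5% in F4/80high, against 27.5%, 18.9% and 32.1% in F4/80low, while *Flt1* made up 63.7%, 31.6% and 32.7% in F4/80high, against 68%, 78.5% and 54.2% in F4/80low. *Kdr* was the larger share in F4/80high replicates 2 and 3 only, and F4/80high replicate 1 resembled the F4/80low libraries.

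*Flt4* (chr11:49609263-49652739, plus strand) was counted 20, 3 and 20 times in F4/80high, against 20, 8 and 51 times in F4/80low, or 0.505, 0.0583 and 2.16 CPM against 0.502, 0.197 and 5.82 CPM. With so few counts its log2 fold change of -0.70 ± 0.99 (SE; 95% interval -2.93 to 1.52, edgeR adjusted p = 0.896) leaves differences in both directions possible. *Tek*, the receptor of the angiopoietins that marks a set of perivascular macrophages as well as endothelium (chr4:94739289-94874976, plus strand), was counted once, in F4/80high replicate 1, and not in the other libraries. Its level was thus at or under the floor of 3 counts, 0.0583 to 0.342 CPM, in each library, and no fold change is given.

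The batch moved the receptors more than the subset did. *Kdr* was at 3.3 CPM over the libraries of batch 1 and 26.9 CPM over those of batch 2, *Flt1* at 8.88 and 33.9 CPM and *Flt4* at 0.315 and 3.99 CPM. *Pgf* went the other way, with 11 CPM in batch 1 and 0.561 CPM in batch 2. For these 4 of the 8 genes the batch term passed an adjusted p of 0.05 in edgeR, as it did for 42.6% of all genes tested. Batch 2 over batch 1 was 2.93 for *Kdr*, 1.97 for *Flt1*, 3.53 for *Flt4* and -4.34 for *Pgf* on the log2 scale, with edgeR adjusted p values of 0.000524, 0.00345, 0.0191 and 0.000435. The other 4 genes had smaller batch differences, from -0.88 for *Pdgfb* to -0.28 for *Vegfa*, none of them past the same threshold.

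Gene length moved with the batch. Across the 14645 genes tested, Spearman's rho between length and the batch difference was 0.379, and between length and the subset difference it was -0.066, where genes are not independent replicates. With the genes split by length into 4 bins of equal size, in the shortest bin, of 90 to 2304 bases, the median of batch 2 over batch 1 was -1.22 on the log2 scale and 23.8% of genes were higher in batch 2. In the longest bin, of 5884 to 116825 bases, the median was 0.6 and 65.7% were higher. *Flt1*, *Kdr* and *Flt4*, at 13504, 9030 and 8232 bases, belong to the longest bin and *Pgf*, *Vegfb* and *Vegfc*, at 1582, 1605 and 1881 bases, to the shortest. The batch differences of the receptors lay above the median of their bin and that of *Pgf* below, while *Vegfb* at -0.73 and *Vegfc* at -0.51 lay above the median of theirs and did not pass the threshold. The part of length in these differences was not tested. Within batch 1 alone, the log2 fold change between subsets was -0.75 for *Vegfa*, 0.99 for *Pdgfb*, 0.74 for *Kdr* and -0.73 for *Flt1*. Their unadjusted edgeR p values there were 0.0607, 0.0465, 0.289 and 0.208.

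**Figure D3:**
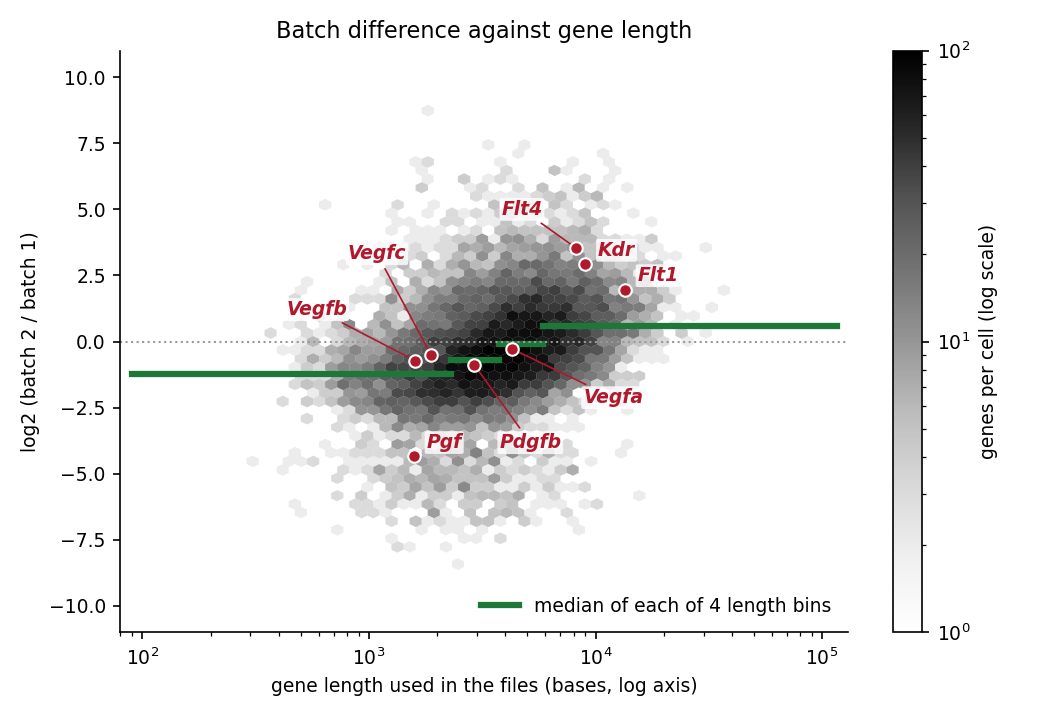
Log2 ratio of batch 2 to batch 1 against gene length (log axis) for the 14645 genes tested, shaded by the number of genes, with the median of each of 4 length bins in green and the 8 angiogenic genes in red. The medians go from -1.22 in the shortest bin to 0.6 in the longest, and the 3 receptors lie above and *Pgf* below the median of their bin.

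Since VEGF receptors are best known from endothelium, the libraries were examined for endothelial RNA, which the CD45+ gate should leave out. The 16 endothelial marker genes summed to 71.1, 36.5 and 47.7 CPM in F4/80high, against 65.1, 59.2 and 87.4 CPM in F4/80low. Most of this was *Pecam1*, which myeloid cells express too. *Clec14a* was at 0 in all 6 libraries, *Prox1* had 1 count in all, and *Cldn5* was at 0 in 4 of them. *Cdh5*, the endothelial cadherin, was counted 30, 9 and 43 times in F4/80high, against 61, 26 and 37 times in F4/80low, fewer than *Kdr* in each library. Such counts are not scaled to gene length. Per length, *Cdh5* was above *Kdr* in F4/80low replicate 1, at 0.384 against 0.375 RPKM, and below it in the other libraries. In batch 2 *Cdh5* was higher than in batch 1 by 2.68 on the log2 scale. *Plvap*, a protein of endothelial pores, was counted 707, 322 and 24 times in F4/80high, against 464, 760 and 32 times in F4/80low, more than *Kdr* in all 4 libraries of batch 1 and fewer in batch 2. Per length, *Plvap* was above *Kdr* in F4/80low replicate 3 as well, at 1.81 against 1.66 RPKM. It differed between batches by -2.13. *Vwf*, counted 90, 123 and 12 times in F4/80high, against 145, 123 and 8 times in F4/80low, was above *Kdr* by counts in the F4/80low libraries of batch 1. Per length, it was above *Kdr* in F4/80low replicate 2 only, at 0.188 against 0.172 RPKM. *Vwf* differed between batches by -1.32. Of 13 endothelial markers tested, 5 had a positive and 8 a negative difference between subsets and 0 had an unadjusted p under 0.05. The part of endothelial RNA in the receptor counts was not tested.

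Markers of other myeloid cells moved with *Vegfa*. The 12 neutrophil markers, of which *Retnlg* was the most abundant per gene length, summed to 2150, 935 and 753 CPM in F4/80high, against 4910, 3140 and 1530 CPM in F4/80low. All 12 had a negative log2 fold change, 8 of them at an unadjusted p under 0.05, with a median of -1.16. In edgeR with the replicate block 6 of the 12 were called (*S100a8*, *S100a9*, *Camp*, *Ngp*, *Cxcr2* and *Mmp8*, adjusted p from 0.0317 to 0.0488), and in DESeq2 with the batch term 5. The 5 eosinophil markers, of which *Prg2* was the most abundant per gene length and *Ccr3* in CPM, summed to 175, 88.2 and 111 CPM in F4/80high, against 369, 591 and 245 CPM in F4/80low, and 5 of 5 had a negative log2 fold change, 4 of them at an unadjusted p under 0.05. DESeq2 with the batch term called 3 of them, *Siglecf*, *Ccr3* and *Prg2*, and edgeR with the replicate block 0. The 6 dendritic cell markers, of which *Ccr7* was the most abundant per gene length, summed to 262, 73.8 and 73.5 CPM in F4/80high, against 475, 157 and 132 CPM in F4/80low. All 6 had a negative log2 fold change, *Flt3* at an unadjusted p of 0.0191, and *Cd209a* was called in edgeR with the replicate block (log2 fold change -2.21, adjusted p = 0.0363) but not in DESeq2 with the batch term (adjusted p = 0.602). In each pair the sum of each of these lists was smaller on the F4/80high side, as *Vegfa* was. So were the sums of the mast cell, the fibroblast and pericyte, and the platelet markers, given below. The part of any of these lists in the *Vegfa* difference was not tested. Macrophage markers, 10 genes with *Lyz2* the most abundant per gene length, summed to 10000, 27000 and 7370 CPM in F4/80high, against 10100, 12200 and 7990 CPM in F4/80low, with the second F4/80high library far above the rest. *Lyz2* made up 16100 CPM of that library's sum. In the first and the third pair the macrophage sum was smaller on the F4/80high side, as *Vegfa* was. Of the 10 macrophage markers 7 had a positive log2 fold change, and *Mertk* (1.63), *C1qa* (1.93) and *C1qb* (1.71) were at an unadjusted p under 0.05, higher in F4/80high in 3 of 3 pairs, the direction opposite to *Vegfa*. Not higher were *Fcgr1*, level at 0, *Itgam* at -0.20 and *Ptprc* at -0.30, the last lower in F4/80high in 3 of 3 pairs. With the replicate block edgeR called *Mertk*, *C1qa* and *C1qb*, at adjusted p values of 0.0381, 0.0272 and 0.0283, while DESeq2 with the batch term called *Mertk* (adjusted p = 0.0163) but neither *C1qa* (0.332) nor *C1qb* (0.063).

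**Figure D4:**
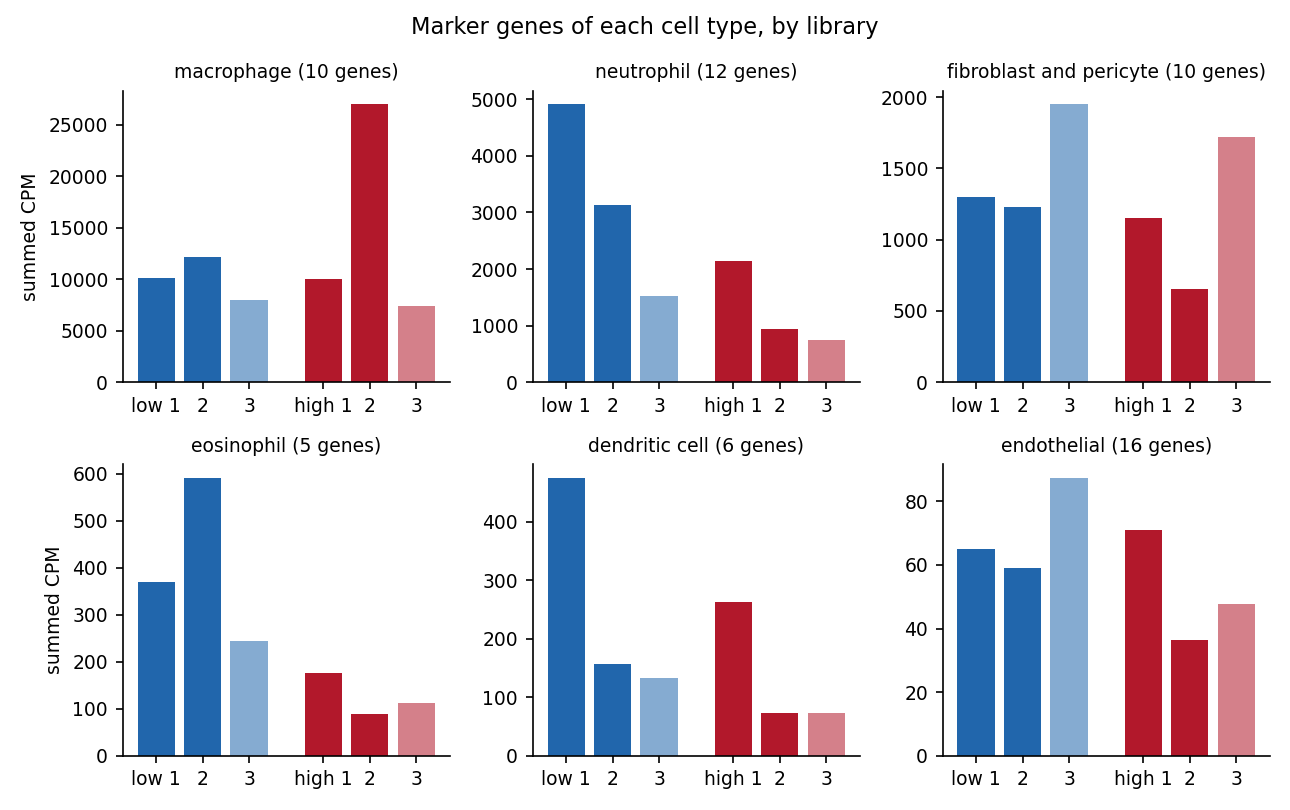
Summed CPM of the marker genes of 6 cell types in each library, with F4/80low in blue, F4/80high in red and batch 2 in a paler shade. Neutrophil and eosinophil sums are lower in F4/80high than in F4/80low in each replicate, and endothelial sums reach no more than 87.4 CPM.

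Beyond the 9 genes, 86 listed genes of the same pathways, in 7 groups, were in the files, and 84 were tested. At an unadjusted p under 0.05, 5 were higher and 4 lower in F4/80high, beside the 3.28% and 4.32% of all genes given above, and 0 were called in edgeR with the batch term. These 9 became 5 without F4/80high replicate 2, 16 without F4/80high replicate 1 and 2 with no batch term. Of the 84 genes, 2 were called by DESeq2 with the batch term (1.01% of all genes), 2 by edgeR with the block for the replicate number (0.519% of all genes) and 5 by DESeq2 with that block, which called 354 genes in all (2.42%). The last 5 were *Nrp1*, *Pdgfc*, *Thbs1* and *Pf4*, described next, and *Vash2*, whose product is known to promote vessel growth, with an adjusted p of 0.0299. *Vash2* was lower in F4/80high in 2 of 3 pairs and at 0 in F4/80high replicate 2.

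Among the other receptors the highest level per length was that of a co-receptor. *Nrp1*, whose product neuropilin-1 presents VEGF-A to VEGFR2, was at 97.4, 306 and 1210 CPM in F4/80high, against 44.7, 85.7 and 572 CPM in F4/80low. Every F4/80high library was above its partner, by 1.12, 1.84 and 1.08 on the log2 scale, and the batch difference of 2.87 had the sign of that of *Kdr*. Its log2 fold change was 1.45 ± 0.43 (SE) with an edgeR adjusted p of 0.504, and it was called with the replicate block, where the edgeR adjusted p was 0.0402, but not in DESeq2 with the batch term (adjusted p = 0.0634). DESeq2 with the block called it at 4.45e-06. At a mean of 65.4 RPKM, *Nrp1* was above *Flt1* and *Kdr* in each library. The other receptors of the list were mixed. *Nrp2*, the lymphatic co-receptor, had a log2 fold change of 0.58 and *Pdgfrl* of 2.95 on 133 counts in all. In log2 fold change, *Pdgfra*, which binds PDGF ligands, was at -0.78, *Pdgfrb*, the receptor of PDGF-B, at -0.40 and *Tie1* at -1.15 ± 1.99 (SE). *Tie1* had 66 counts in all, 42 of them in F4/80low replicate 1, and was above its partner in the other 2 F4/80high libraries. By sign the list had 3 genes higher and 3 lower with a median of 0.09.

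Among the other ligands, *Pdgfc* was the closest to *Pdgfb* in direction and size. It was at 22.1, 26.4 and 27.2 CPM in F4/80high, against 8.96, 14.9 and 9.24 CPM in F4/80low, with no overlap between subsets, as for 2.3% of all genes with F4/80high above, and nearly no batch difference (-0.09 on the log2 scale). The log2 fold change was 1.19 ± 0.31 (SE) with an edgeR adjusted p of 0.461, and it was called in DESeq2 with the batch term, where the adjusted p was 0.0444, but not in edgeR with the replicate block (adjusted p = 0.128). DESeq2 with that block called it at 0.0125. *Pdgfa*, the most abundant of this list per gene length, had a log2 fold change of 0.35. The angiopoietins, ligands of *Tek*, were scarce, and *Angpt2* and *Angpt1* had log2 fold changes of -1.23 ± 0.74 and -1.6 ± 1.37 (SE), negative in all 3 pairs, on 305 and 86 counts in all, while *Angpt4* was at the floor. *Pdgfd* had 54 counts, and over the 6 genes tested 4 were higher and 2 lower, with a median of 0.23.

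The list of inhibitors of vessel growth, which also held *Vash2*, had 9 genes tested, of which 7 had a negative log2 fold change, with a median of -0.52. Without *Vash2*, left out after the values were seen, 6 of 8 were negative with a median of -0.51. Only 1 of the negative ones (*Thbs1*) and 1 of the positive ones (*Pf4*) had an unadjusted p under 0.05, and 0 were called in edgeR with the batch term. Of 10 fibroblast and pericyte markers, given below, 7 were also negative, with a median of -0.44, and their sum was smaller in F4/80high in each pair. The part of such cells in the inhibitor list was not tested. *Thbs1*, which encodes thrombospondin-1, was at 1080, 1120 and 1810 CPM in F4/80high, against 3400, 1700 and 3830 CPM in F4/80low, and per length at a mean of 355 RPKM, beside the 93.3 of *Vegfa*. Its log2 fold change was -1.17 ± 0.28 (SE) with an edgeR adjusted p of 0.44, and it was called in DESeq2 with the batch term, where the adjusted p was 0.0145, but not in edgeR with the replicate block (adjusted p = 0.0669). In DESeq2 with that block it was called at 0.000534. *Pf4*, which encodes the angiostatic chemokine CXCL4, was at 102, 363 and 26.9 CPM in F4/80high, against 17.3, 122 and 1.83 CPM in F4/80low, higher in 3 of 3 pairs. The log2 fold change was 2.28 ± 0.77 (SE) with an edgeR adjusted p of 0.533, and it was called with the replicate block, where the edgeR adjusted p was 0.0324, but not in DESeq2 with the batch term (adjusted p = 0.357). It was also called in DESeq2 with the block, at 4.87e-11. *Pf4* is also a platelet gene, and the 6 platelet markers in the files, of which *Ppbp* was the most abundant per gene length and *Itga2b* in CPM, summed to 16.2, 7.75 and 3.24 CPM in F4/80high, against 22.5, 17.3 and 11 CPM in F4/80low. *Itga2b* was lower in F4/80high in 3 of 3 pairs and *Ppbp* higher in 2 of 3, and over the list 3 had a positive and 3 a negative log2 fold change. Both with an unadjusted p under 0.05 were lower, *Itga2b* at -1.33 and *Gp1ba* at -2.45, the latter with no overlap between subsets on 175 counts in all. The part of platelet RNA in the *Pf4* difference was not tested. Of the rest, *Adamts1* had a log2 fold change of -0.59 and *Col18a1*, the source of endostatin, at -0.55, while *Vash1* was at 0.65 on 44 counts.

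Other secreted factors that act on vessels, 14 genes, had 6 higher and 8 lower with a median of -0.43. *Ang*, which encodes angiogenin, was at 14.9 ± 4.89 CPM in F4/80high (SD, n = 3), against 6.59 ± 3.74 CPM in F4/80low (SD, n = 3), with a log2 fold change of 1.16 ± 0.48 (SE), an unadjusted p of 0.0381 and an edgeR adjusted p of 0.635. *Edn1*, which encodes endothelin-1, had a log2 fold change of 1.03 that rested on the third F4/80high library, with 26.3 CPM against 1.15 to 2.21 CPM in the others, and *Tymp* had 56 counts in all. The log2 fold change of *Hbegf*, an EGF-family growth factor, was -0.62, with *Cxcl12* at -0.60, *Wnt7b* at -0.82, and *Cyr61*, the most abundant, at -0.44.

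Components that carry the signal of the receptors, 20 genes, were close to level, 9 higher and 11 lower with a median of -0.06. *Plcg2*, a phospholipase of immune cells, had the lowest p, with a log2 fold change of -0.65 ± 0.26 (SE) and an edgeR adjusted p of 0.623. In log2 fold change, *Plcg1*, the form that VEGFR2 uses, was at 0.32, *Fyn* at 0.22 and *Ptk2* at -0.64. *Grb2*, the most abundant per gene length, was at 0.02.

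The HIF pathway bears on *Vegfa* as one of its targets. Of 9 HIF regulators tested, 4 were higher and 5 lower, with a median of -0.17, and *Hif3a* was at the floor. *Egln3*, a prolyl hydroxylase that is itself a HIF target, was at 42.2, 50 and 24 CPM in F4/80high, against 78.6, 73.7 and 36.4 CPM in F4/80low. Its log2 fold change was -0.68 ± 0.22 (SE), close in size to that of *Vegfa* and with the same sign in 3 of 3 pairs, with an unadjusted p of 0.0118 and an edgeR adjusted p of 0.524. In log2 fold change, *Hif1a*, the most abundant, was at -0.17, *Arnt* at -0.35, *Vhl* at -0.26, *Epas1* at 0.28, *Egln2* at 0.19 and *Hif1an* at 0.59. The 20 genes induced by hypoxia had 6 higher and 14 lower with a median of -0.09, and 0 had an unadjusted p under 0.05. The lowest p was that of *Slc2a1*, the glucose transporter GLUT1, with a log2 fold change of -0.37 ± 0.23 (SE), followed on the lower side by *Ero1l* at -0.30 and *Pfkfb4* at -0.37. On the same scale *Ldha*, the most abundant, was at -0.01, and *Pdk1*, *Car9* and *Bnip3* were at 0.32, 0.23 and 0.18. The fold change of *Vegfa* was larger in size than that of every named gene of this list.

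**Figure D5:**
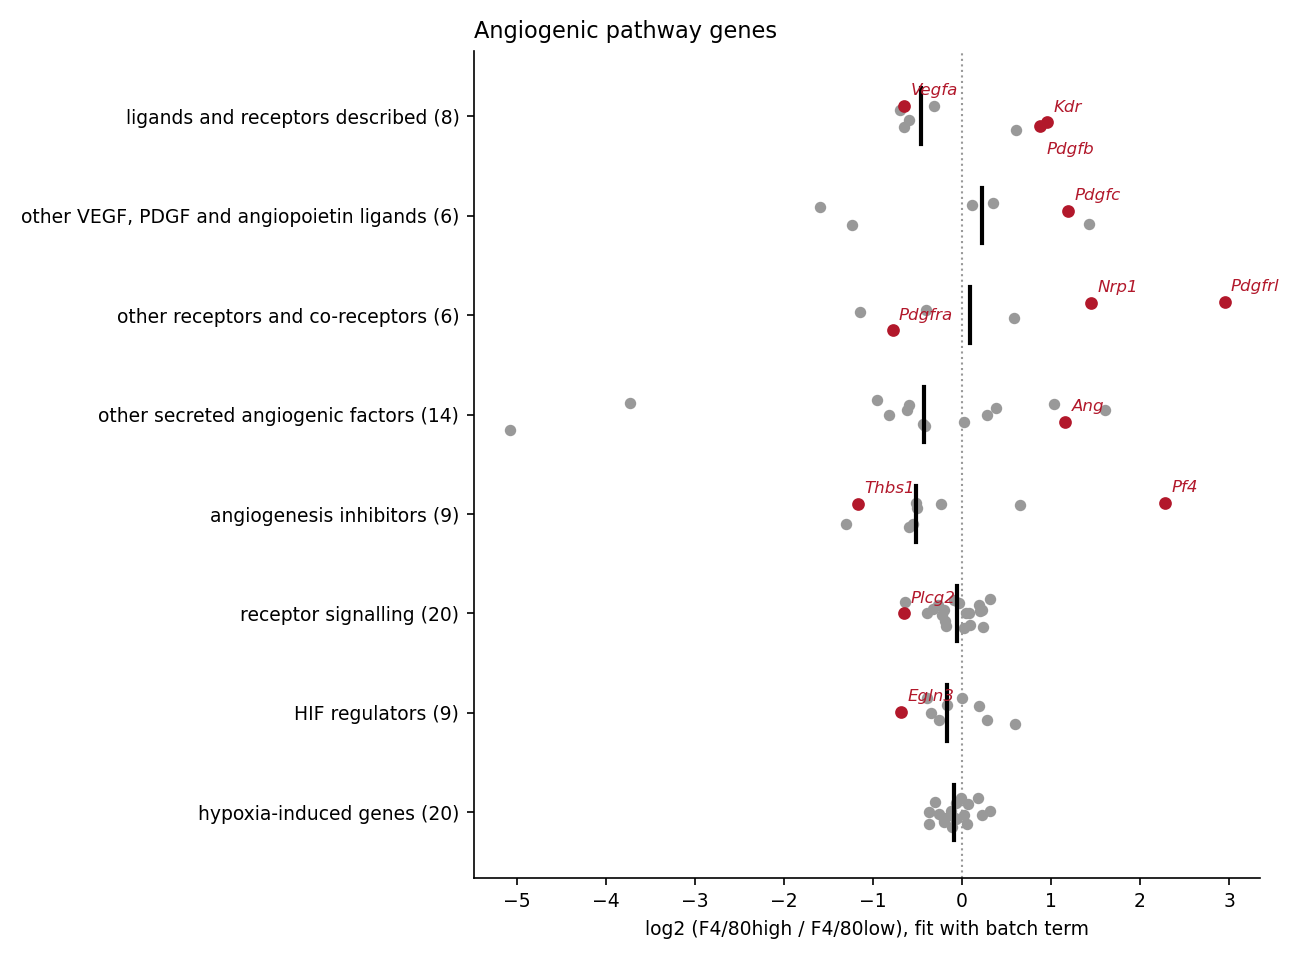
Log2 ratio of F4/80high to F4/80low for the genes tested in each list (number of genes in brackets, black bars for medians, red for genes with an unadjusted p under 0.05, which are named). The signalling, HIF and hypoxia lists cluster near 0, while *Nrp1*, *Pdgfc*, *Pf4* and *Thbs1* lie more than 1 from it. The points below -3 are *Fgf1* and *Tgfa*, with 35 and 12 counts in all, named after their values were seen.

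The start sites were looked up for motifs of hypoxia and of Sp1, the factor of GC-rich promoters, in the 250 bases before each RefSeq start (GRCm38.p6). RefSeq windows were found for 8 of the 9 genes, 10 in all, and no window was used for *Pdgfb*. The HIF core, ACGTG or GCGTG on either strand, was present in 5 of the 10 windows and in 38.6% of 32851 windows of all genes. The Sp1 core GGGCGG, on either strand, was present in 8 of 10 and in 32.7% of all. The windows of *Vegfa* and *Kdr*, the ligand and the receptor whose unadjusted p was under 0.05 in opposite directions, are printed 5′ to 3′ on the minus strand with the Sp1 core in capitals. The window before the upstream start of *Vegfa* (chr17:46032378-46032627) holds 2 Sp1 cores and 0 HIF cores, that before its downstream start (chr17:46025164-46025413) holds 1 Sp1 core and 2 HIF cores, and that of *Kdr* (chr5:75978456-75978705) holds 2 of each. The downstream *Vegfa* window lies inside the gene, with 67 of its 250 bases in coding exon sequence of GENCODE M21, and both of its HIF cores are in those coding bases. The windows of *Flt4* and *Pgf* also lie within exons of their genes. Sequence further upstream was not searched, so the 0 HIF cores before the upstream *Vegfa* start hold for those 250 bases only. A match of letters is a description and no evidence of binding.
Vegfa upstream start: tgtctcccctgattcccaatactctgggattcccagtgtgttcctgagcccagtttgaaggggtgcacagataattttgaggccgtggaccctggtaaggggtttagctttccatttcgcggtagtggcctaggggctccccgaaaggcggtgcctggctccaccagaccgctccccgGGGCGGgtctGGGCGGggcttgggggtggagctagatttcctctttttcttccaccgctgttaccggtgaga
Vegfa downstream start: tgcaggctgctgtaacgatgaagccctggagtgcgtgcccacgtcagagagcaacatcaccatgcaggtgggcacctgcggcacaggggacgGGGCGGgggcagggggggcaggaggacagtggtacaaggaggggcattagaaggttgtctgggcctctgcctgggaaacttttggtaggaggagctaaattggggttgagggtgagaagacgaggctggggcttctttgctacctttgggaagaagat
Kdr: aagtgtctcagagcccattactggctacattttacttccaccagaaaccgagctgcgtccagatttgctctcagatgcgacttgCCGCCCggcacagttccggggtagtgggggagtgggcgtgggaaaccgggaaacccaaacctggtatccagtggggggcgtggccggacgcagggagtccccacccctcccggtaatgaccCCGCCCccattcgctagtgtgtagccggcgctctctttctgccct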

How the data were processed

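The libraries, 3 from each TAM subset, were sequenced in bulk. The authors deposited raw read counts per gene with its length and biotype, with no normalization. Reads were aligned by the routine pipeline of the center that sequenced them, and the aligner, strand setting and annotation are not given in the sources used here. Of the gene IDs, 99.4% were found in GENCODE M21 (GRCm38), whose coordinates and biotypes were used, and the exons of the 9 genes overlap no other gene. Protein-coding genes whose counts over the 6 libraries added up to at least 10, 14645 in all, were fitted by the quasi-likelihood test of edgeR 4.0.16 (R 4.3.3) with TMM and terms for batch and subset, with DESeq2 1.42.0 and limma 3.58.1 for alternatives and batch removal, and with Benjamini-Hochberg adjustment over all of them. SE is the log2 fold change over the root of F. A gene with no more than 3 counts in each library was taken as at the floor. Steps were tested on simulated data.

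The labels number the replicates 1 to 3 in both subsets and the study states 3 independent experiments. Deviations from subset means over 10072 genes correlated at 0.745, 0.729 and 0.907 between libraries of the same number. Such libraries also share a batch, which enters these values. Within batch 1 alone the correlation was 0.242, by construction the same value for both of its pairs. The numbers were taken as pairs, which these values do not establish. No library was a copy of another. The batch is as drawn in the study's PCA of these libraries.

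The 9 genes, the lists and the tests were chosen with earlier results of these data known. Named are the 9 genes, *Adgre1*, up to 3 genes of each pathway list with the lowest p in each direction and its most abundant gene, the most abundant gene of each marker list with those at 0, and the 3 genes most alike to each of the 9 with at least 10 counts in each library. *Cdh5*, *Plvap*, *Vwf*, *Prox1*, *Cldn5*, *Vash2*, *Ccr3*, *Itga2b*, *Kit*, *Cpa3*, *Mcpt4*, *Col3a1*, *Col1a2*, *Acta2*, *Gp1ba*, *Mertk*, *C1qa*, *C1qb*, *Fcgr1*, *Itgam*, *Ptprc*, *Flt3*, *Cd209a*, *Siglecf*, *S100a8*, *S100a9*, *Camp*, *Ngp*, *Cxcr2*, *Mmp8*, *Cd8a* and *Pdpn* were named after their values were seen. Genes listed and found in the files were 179 of 186, and the others were not analysed here. A few genes that the rule names are not reported here. The alternatives were DESeq2, other size factors, no batch term, the replicate block, other filters and biotypes, and leaving out each library or batch 2.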

Additional observations from a re-analysis of the deposited data

How the results depend on the processing

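None of the 9 genes was called under any of the 19 alternatives, and *Vegfa*, *Vegfb*, *Pdgfb*, *Kdr*, *Flt1*, *Pgf* and *Flt4* kept their sign in each alternative that tested them. *Vegfc* ran from -1.16 to 0.30 when 1 library was left out, and its sign reversed in 2 of these fits, without F4/80high replicate 2 (0.04) and leaving out F4/80low replicate 1 (0.30). The cause was not tested. Leaving out 1 library at a time moved the log2 fold change of *Vegfa* from -0.75 to -0.54, of *Vegfb* from 0.47 to 0.82, of *Pdgfb* from 0.57 to 1.25, of *Kdr* from 0.74 to 1.4, of *Flt1* from -1.06 to -0.27, of *Pgf* from -1.01 to -0.36 and of *Flt4* from -1.95 to -0.32. The number of genes called over the whole table was 0 in edgeR with the batch term (1113 at an unadjusted p under 0.05) and 148 in DESeq2 with the same terms. With the replicate block, which pairs the libraries by replicate number, it was 76 in edgeR and 354 in DESeq2, and the block changed the call of none of the 9 genes. Leaving out 1 library gave 0 to 77 called genes, 77 of them without F4/80high replicate 1. The number of pathway genes at an unadjusted p under 0.05 was 9, with no batch term 2, and when 1 library was left out 5 (without F4/80high replicate 2) to 16 (without F4/80high replicate 1). The number of the 9 genes at that p was 3, and 0 to 4 when 1 library was left out. The cause of these shifts was not tested. Few counts limit *Flt4*, with 3 to 51 in a library, and in batch 2 *Pgf*, with 3 and 7.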

Other observations

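The marker lists of other cells were as follows. The 6 mast cell markers, of which *Tpsb2* was the most abundant per gene length, summed to 107, 6.22 and 98.7 CPM in F4/80high, against 138, 28.5 and 404 CPM in F4/80low. Of these markers 6 of 6 were negative in log2 fold change and 0 had an unadjusted p under 0.05 in edgeR with the batch term. In batch 2 the sums were mostly *Kit*, at 91.3 and 384 CPM. With the replicate block in edgeR, *Kit*, *Tpsb2* and *Cpa3* had an unadjusted p under 0.05 (0.000935, 0.0175 and 0.0235), and 0 were called. In DESeq2 with that block the adjusted p was 5.09e-07 for *Kit*, lower in F4/80high in 3 of 3 pairs. For *Mcpt4*, lower in 2 of 3, it was 0.0252. Lymphocyte markers, 8 genes with *Cd3e* the most abundant per gene length, went the other way with 7 of 8 higher, at 580, 192 and 91.1 CPM in F4/80high, against 231, 288 and 46.4 CPM in F4/80low, so the second pair had the opposite order. *Cd3e* and *Cd8a* had an unadjusted p under 0.05 (0.0223 and 0.0305), both higher in F4/80high in 2 of 3 pairs, and 0 were called with the batch term or the block. The 10 fibroblast and pericyte markers, of which *Dcn* was the most abundant per gene length and *Col3a1* or *Col1a2* in CPM, summed to 1150, 651 and 1720 CPM in F4/80high, against 1300, 1230 and 1950 CPM in F4/80low. Of these 7 had a negative log2 fold change, and the only one with an unadjusted p under 0.05 in edgeR with the batch term was *Pdpn*. Its log2 fold change was 1.63, with an edgeR adjusted p of 0.562, and it was higher in 3 of 3 pairs, against the order of the sums. With the replicate block the adjusted p of *Pdpn* was 0.251 in edgeR and 0.0151 in DESeq2. *Col3a1*, *Acta2* and *Col1a2* were lower in F4/80high in 3 of 3 pairs. In edgeR with that block their unadjusted p values were 0.0117, 0.0264 and 0.0483, and 0 of the list were called. The 4 melanoma markers in the files, of which *S100b* was the most abundant per gene length, summed to no more than 6.86 CPM in any library, and the only keratinocyte marker in the files, *Krt10*, to no more than 1.82 CPM.

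The genes whose log2 CPM followed each angiogenic gene most closely, by Pearson's r over the 6 libraries with the batch removed, were *Baz2b* (0.9992), *Slc18a2* and *Vrk1* for *Vegfa*, *Cbr1*, *Cela1* and *Rqcd1* for *Vegfb*, *Egr3* (0.999), *Frat2* and *Pla2g6* for *Vegfc*, *Il33* (0.999), *Retnla* and *Cbx7* for *Flt1*, *Luc7l* (0.9957), *Uhrf2* and *Ncbp1* for *Kdr*, and *mt-Nd2* (0.9995), *Pkp4* and *Rnf150* for *Pdgfb*. These were picked as the highest of 10987 genes over few libraries that share experiments, and 145 genes had an r over 0.95 with *Vegfa* alone.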
